A study of Mus musculus with 42 samples.

Results

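Spleens taken 7 days after an injection of CpG oligodeoxynucleotides (CpG ODN) were compared with spleens of untreated mice across all measured genes. The comparison used the 4 arrays titled as CpG ODN at 7 days and the 6 arrays titled as untreated, 10 of the 42 arrays of the series. Every gene that the annotation of the array names by a single symbol was included, which gave 15277 genes from 23485 of 30601 features. All mice were female BALB/c, and the labels do not state their ages. The CpG-treated mice had received 400 µg of an equimolar mixture of ODN 1555 and ODN 1466 into the peritoneal cavity, and the untreated mice no ODN. Control ODN were given only to a group taken after 3 h, so no control ODN group matches the 7 days. Whole-spleen RNA was labelled with Cy5 and a universal mouse reference RNA with Cy3 on the same 2-colour array. Every level below is therefore a log2 ratio of spleen over reference, with the log base and the direction inferred from the values.

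CpG ODN are short DNAs with unmethylated CpG motifs that bind TLR9, an endosomal receptor for microbial DNA found in B cells, plasmacytoid dendritic cells and macrophages. Signals from TLR9 pass through MyD88 to NF-kB and interferon regulatory factors, and the spleen answers with cytokines and interferons within hours. The mouse spleen is also a blood-forming organ, whose red pulp can take up erythroid and myeloid precursors under inflammation. Dividing precursors express replication and mitosis genes, immature granulocytes make primary granule proteins before the secondary ones, and erythroblasts make haem.

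Correlations between arrays were 0.935 to 0.960 within the 7-day group, 0.879 to 0.958 within the untreated group and 0.837 to 0.906 across the groups. The 7-day arrays lacked a value for 313 to 437 features and the untreated arrays for 186 to 1740, and precision is limited by how many arrays there were. The labels call the samples independent biological replicates. Markers of spleen were high in both groups, for example Cd79a of B cells (mean ± SD, 4.84 ± 0.21 at 7 days, n = 4, and 5.64 ± 0.55 in untreated mice, n = 6), the red pulp macrophage factor Spic (4.82 ± 0.12 and 4.57 ± 0.43) and the stromal factor Tlx1 (3.99 ± 0.40 and 4.70 ± 0.65). Pancreas acinar genes varied widely from array to array in both groups. The mean of 12 of them was between 0.34 and 4.62 at 7 days and between 0.64 and 5.80 in untreated spleens, and 0 of 18 tested members were called. With this mean as a covariate, 2424 genes were called in the main comparison in place of 2368. Against 14 days, where 0 of the 18 were called, all 18 had higher levels at 7 days, with a median difference of 2.24, and the mean of the 12 was 2.75 ± 2.13 (SD, n = 4) at 7 days, 2.38 ± 1.77 at 72 h and 0.83 ± 0.30 at 14 days. The covariate gave 3020 calls in place of 3224 against 14 days and 586 in place of 553 against 72 h. The database numbers in the array titles fall into 10 runs, and the 7-day arrays share no run with the untreated arrays. Run and treatment cannot be told apart in the main comparison, so 7 days was also compared with 72 h and with 14 days after CpG ODN, 4 arrays each in the same run as the 7-day arrays. These 3 comparisons share the 7-day arrays.

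At 7 days nearly all mitosis and DNA replication genes were higher than in untreated spleen, together with 10 of 12 haem synthesis genes, 5 of 10 primary granule genes and a pair of immunoglobulin heavy chain genes. A minority of the B cell genes (8 of 22), the T cell genes (8 of 21) and the NF-kB inhibitors and early-response genes (10 of 34) was lower. A gene was called at an adjusted p below 0.05 (limma, Benjamini-Hochberg over all genes tested). Of 15200 genes tested, 2368 were called, or 15.6%: 1321 were higher (8.69%) and 1047 lower (6.89%), with a median difference of -0.02. Larger changes were mostly increases, as 343 called genes were higher by at least 1 on the log2 scale and 76 lower by at least 1. Against 72 h, 553 of 15092 genes were called (3.66%), 163 higher (1.08%) and 390 lower (2.58%), with a median of -0.02. Single arrays moved this count, to 335 without CpG 7 days replicate 4, 305 without CpG 72 h replicate 1 and 1055 without CpG 72 h replicate 4. Against 14 days, 3224 of 14965 were called (21.5%), 1612 in each direction (10.8% each), with a median of -0.03, and 1874 were called without CpG 14 days replicate 2. These are bulk samples, in which fewer cells of a type and less RNA per cell cannot be told apart.

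The sequences below are of genes that moved together or apart in these data: 4 mitotic genes that rose, a pair of interferon-stimulated genes that rose, and the erythroid haem synthesis gene that fell. Each is the stretch of 250 bases before the start of the gene on its own strand, from RefSeq on GRCm38.p6, in lower case with motif matches in capitals. For the mitotic genes the capitals mark TTTGAA, the core of the cell cycle homology region bound by repressors of G2 and M phase genes, and CCAAT, bound by NF-Y, on either strand.
Mki67 (chr7:135716380-135716629, minus strand): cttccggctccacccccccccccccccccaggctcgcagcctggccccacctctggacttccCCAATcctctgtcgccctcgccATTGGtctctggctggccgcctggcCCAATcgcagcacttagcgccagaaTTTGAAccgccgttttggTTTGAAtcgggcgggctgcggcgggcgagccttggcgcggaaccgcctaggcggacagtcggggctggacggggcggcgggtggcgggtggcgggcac
Top2a (chr11:99024190-99024439, minus strand): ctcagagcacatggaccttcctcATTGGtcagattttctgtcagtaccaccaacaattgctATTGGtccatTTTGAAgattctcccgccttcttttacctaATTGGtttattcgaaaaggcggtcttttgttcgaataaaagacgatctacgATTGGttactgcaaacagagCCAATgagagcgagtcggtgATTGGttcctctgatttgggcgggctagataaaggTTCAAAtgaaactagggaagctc
Hmmr (chr11:40733438-40733687, minus strand): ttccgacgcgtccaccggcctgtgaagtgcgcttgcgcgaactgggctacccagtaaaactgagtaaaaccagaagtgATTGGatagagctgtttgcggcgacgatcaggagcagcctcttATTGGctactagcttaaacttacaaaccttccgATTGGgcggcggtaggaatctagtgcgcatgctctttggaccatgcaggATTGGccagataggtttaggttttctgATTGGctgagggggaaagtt
Nuf2 (chr1:169531465-169531714, minus strand): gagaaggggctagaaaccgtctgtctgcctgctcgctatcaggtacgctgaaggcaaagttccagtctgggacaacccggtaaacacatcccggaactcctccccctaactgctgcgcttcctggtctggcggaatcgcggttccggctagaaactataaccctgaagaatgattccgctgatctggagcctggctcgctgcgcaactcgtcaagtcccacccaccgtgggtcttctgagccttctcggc
For the interferon-stimulated genes the capitals mark the core of the interferon-stimulated response element, which is GAAA, any 2 bases and GAAA again on either strand. Its matches may overlap each other.
Isg15 (chr4:156200819-156201068, minus strand): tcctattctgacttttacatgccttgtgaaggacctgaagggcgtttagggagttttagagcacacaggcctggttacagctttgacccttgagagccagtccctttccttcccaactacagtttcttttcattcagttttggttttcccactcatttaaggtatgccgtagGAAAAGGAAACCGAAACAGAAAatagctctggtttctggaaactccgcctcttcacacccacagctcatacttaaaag
Rsad2 (chr12:26456453-26456702, minus strand): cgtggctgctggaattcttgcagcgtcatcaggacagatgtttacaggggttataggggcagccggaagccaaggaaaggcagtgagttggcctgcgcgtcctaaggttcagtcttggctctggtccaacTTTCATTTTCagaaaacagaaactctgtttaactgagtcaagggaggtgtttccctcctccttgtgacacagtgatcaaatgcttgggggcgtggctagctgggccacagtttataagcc
For Alas2 they mark AGATAA and TGATAA, bound by GATA factors, and CCACACCC, bound by KLF1.
Alas2 (chrX:150547167-150547416, plus strand): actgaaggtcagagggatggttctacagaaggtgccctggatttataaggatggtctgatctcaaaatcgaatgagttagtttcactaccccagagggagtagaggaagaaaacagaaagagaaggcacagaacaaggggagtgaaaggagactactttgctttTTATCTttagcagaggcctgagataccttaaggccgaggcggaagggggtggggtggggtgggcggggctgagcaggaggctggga
The Top2a stretch held 8 matches, Mki67 and Hmmr 5 each, and Nuf2 none, while Nuf2 rose by 1.74 ± 0.30 and Top2a by 1.82 ± 0.28. CCAAT was found before 23 of 31 mitotic genes with a sequence (74.2%) against 33.8% of all 32851 sequences, and TTTGAA before 11 (35.5%) against 16.0%. The response element core was found before 9 of 21 type I interferon-stimulated genes (42.9%) and 11 of 24 interferon-gamma GTPase and antigen presentation genes (45.8%), against 2.98% of all. AGATAA or TGATAA was found before 12 of 17 erythroid marker genes (70.6%) and 3 of 11 haem synthesis genes (27.3%) against 16.6% of all, while CCACACCC, found before 3.20% of all, was found before 0 of these 28 genes. A listed gene counted as matched if any of its sequences matched, while the share of all counted each of the 32851 sequences, of 27025 symbols, singly. Listed genes with several sequences thus had more chances of a match. These matches describe letters and were not tested as sites, and the TTTGAA and CCAAT motifs were chosen after the values were seen.

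Genes of mitosis formed the group that rose most completely. Of 38 members tested, 37 rose and 0 fell, against 8.69% of all genes that rose, with a median difference of 1.19. In 36 members every 7-day array lay above every untreated array, against 8.73% of the 14168 genes measured on all 10 arrays. The proliferation antigen Mki67 had levels of 3.07, 3.31, 3.28 and 3.56 at 7 days, and from 0.52 to 2.52 with a median of 1.05 in untreated mice. The groups did not overlap, and the nearest untreated array was replicate 2 at 2.52. Mki67 was higher by 2.10 ± 0.41 (log2 difference ± SE, a 4.27-fold ratio, limma adjusted p = 0.00048). Top2a, the topoisomerase that untangles chromosomes before division, had levels of 1.00, 1.20, 1.50 and 1.20 against -1.13 to -0.04 (median -0.49), a difference of 1.82 ± 0.28 (adjusted p = 4.55e-05). Hmmr, a spindle protein, rose by 1.80 ± 0.32, and Nuf2, a kinetochore subunit, by 1.74 ± 0.30. The kinetochore partners of Nuf2 followed, with Spc25 at 1.70 and Ndc80 at 1.67, as did the checkpoint kinase Bub1 at 1.61, cyclin B2 (Ccnb2) at 1.67 and cyclin A2 (Ccna2) at 1.50. Foxm1, the transcription factor of the G2 to M programme, rose by 1.16. The single member not called was the kinesin Kif2c at 0.05. Depdc1a, a mitotic gene outside the list, had levels of 2.27, 2.67, 2.33 and 2.82 against 0.00 to 0.96 and rose by 2.06 ± 0.34.

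DNA replication genes rose nearly as broadly. Of 44 members 38 were higher (86.4%, where 8.69% of all genes were higher) and 0 lower, with a median of 0.91. The origin licensing factor Orc1 had levels of 1.44, 1.82, 1.78 and 1.56 at 7 days against -0.58 to 0.28 (median -0.12), a difference of 1.78 ± 0.33. Each of the replicative helicase subunits Mcm2 to Mcm7 rose, by 0.68 (Mcm4) to 1.26 (Mcm2). Mcm5 had levels of 1.18, 1.21, 1.54 and 1.20 against 0.09 to 0.41, with no overlap. The primase subunit Prim2 rose by 1.44 ± 0.29, the cell cycle transcription factor E2f8 by 1.49 ± 0.29 and the clamp Pcna by 1.00. The 6 members not called were Pold1, Pold2, Rfc3, Rfc5, Rpa1 and Rrm2, with differences from 0.19 to 0.41. Among DNA repair genes, a list written after the values were seen, 16 of 36 rose and 1 fell, with a median of 0.31. These were 44.4% and 2.78% of the list, where 8.69% of all genes rose and 6.89% fell. The largest increases were those of the recombination genes Rad54l (1.47 ± 0.24) and Brca1 (1.32 ± 0.27), the helicase Blm (1.21 ± 0.21) and the Fanconi gene Fancd2 (1.15 ± 0.24). The glycosylase Neil3 (1.08), Xrcc6 of end joining (0.55) and Xpa of excision repair (0.50) rose too, while Xrcc1 (0.05), Xpc (-0.08) and Xrcc4 (-0.13) were not called. The gene that fell was Ddb2 (-0.45), whose call was lost without CpG 7 days replicate 3 or 4.

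Replication-dependent histone genes, whose transcripts in S phase end in a stem-loop in place of a poly(A) tail, also rose. Of 51 members tested 43 were higher (84.3%, where 8.69% of all genes were higher) and 0 lower, with a median of 1.33. H2ac4 had levels of 2.08, 1.82, 2.52 and 3.21 at 7 days against -0.16 to 1.04 (median 0.40), and H4c6 had 3.14, 2.88, 2.78 and 3.63 against 0.95 to 1.40 (median 1.14). The groups overlapped in neither gene, and the differences were 2.02 ± 0.33 and 1.95 ± 0.33. All 4 core histones and the linker histone H1 were represented, with H2bc1 at 1.78, H3c3 at 1.77, H4c3 at 1.94 and H1f4 at 1.58. Single histone genes are uncertain because their copies are nearly identical, and the list was written after the values were seen. The labelling used oligo(dT), per the labels.

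**Figure D1:**
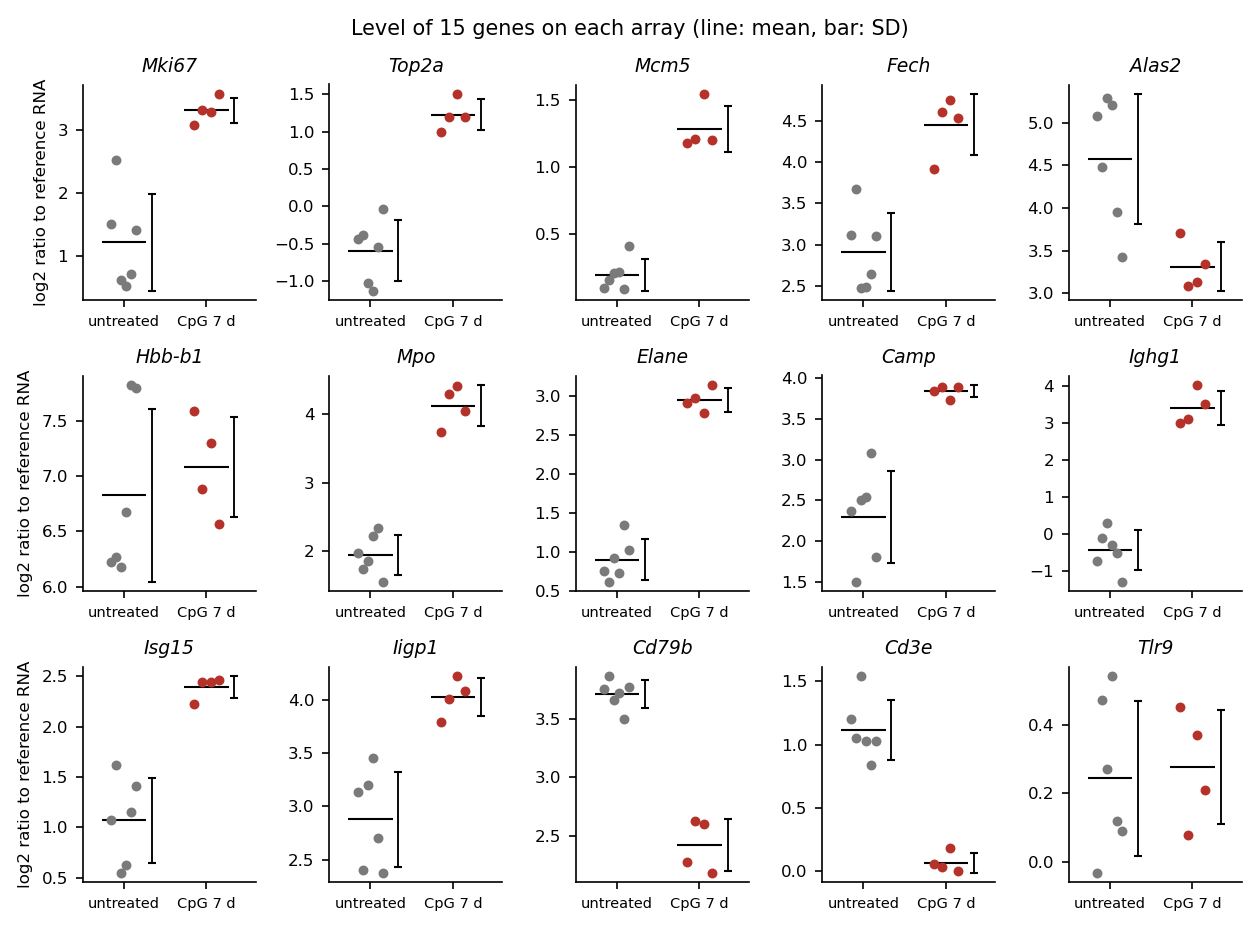
Levels of 15 genes (vertical axes, log2 ratio of spleen over reference RNA, each with its own range) on the 6 untreated arrays (grey) and the 4 arrays at 7 days after CpG ODN (red), with the mean as a line and the SD as a bar. The red points lie above all grey ones for Mki67, Top2a, Mcm5, Fech, Mpo, Elane, Camp, Ighg1, Isg15 and Iigp1 and below them for Cd79b and Cd3e, and the groups overlap for Alas2, Hbb-b1 and Tlr9.

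Within the same run of arrays, most division genes were called higher at 7 days than at 14 days. Against 72 h many histones but few mitotic or replication genes were called higher, although most differences were positive. Against 14 days, where 10.8% of all genes were higher, 36 mitotic members were higher (median 1.25), 37 of the replication members (median 0.97) and 37 of the histones (median 1.10), with 0 lower in each list. Against 72 h, where 1.08% of all genes were called higher, 2 mitotic members, 1 replication member and 28 histones were called higher and 0 lower. Their lists had medians of 0.41, 0.28 and 0.88. Differences from 72 h were positive in all 38 mitotic members, 39 of 44 replication members and all 51 histones. H2bc1 was higher than at 72 h by 1.66 ± 0.31 (adjusted p = 0.000862), and Mki67 by 1.24 ± 0.45 without passing the threshold (adjusted p = 0.107). In list means, the mitotic genes went from -0.45 ± 0.22 (SD, n = 6) in untreated mice through 0.28 ± 0.22 at 72 h and 0.62 ± 0.11 at 5 days to 0.73 ± 0.08 at 7 days, and stood at 0.21 ± 0.28 at 9 days and -0.53 ± 0.38 at 14 days. Replication genes had their highest mean at 5 days (0.94 ± 0.05, against 0.75 ± 0.08 at 7 days), and histones at 9 days (2.22 ± 0.38, against 2.14 ± 0.07 at 7 days). The histone means at 7 and 9 days differed by less than their spread.

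Of 12 haem synthesis members, 10 rose (83.3%, where 8.69% of all genes rose) and 1 fell (8.33%, where 6.89% fell). The median was 0.85. Fech, which inserts iron into protoporphyrin in the last step, had levels of 3.92, 4.61, 4.75 and 4.54 at 7 days against 2.47 to 3.67 (median 2.87) in untreated mice, with no overlap, and rose by 1.54 ± 0.31 (adjusted p = 0.000663). The enzymes of the middle steps rose by similar amounts, Alad by 0.99 ± 0.27, Urod by 0.96, Uros by 0.93, Ppox by 0.87 and Cpox by 0.66, and so did the transporters Abcb10 (1.25 ± 0.31), Abcb6, Slc25a38 and Tmem14c. Alas2, the erythroid enzyme of the first step, was the exception. Its levels were 3.70, 3.08, 3.13 and 3.34 at 7 days and 5.08, 4.48, 5.29, 5.20, 3.95 and 3.42 in untreated mice, so that untreated replicate 6 lay among the 7-day arrays while the others lay above. Alas2 differed by -1.26 ± 0.37 and was called lower (adjusted p = 0.0151), while against 72 h its difference of -1.25 ± 0.40 missed the threshold (adjusted p = 0.0667). Its ubiquitous counterpart Alas1 differed by 0.01 and was not called.

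Of 28 erythroid markers 11 rose (39.3%, where 8.69% of all genes rose) and 0 fell, with a median of 0.67. Xpo7, a nuclear exporter that terminal erythroblasts need, had levels of 3.56, 3.94, 3.79 and 3.93 against 1.59 to 2.87 (median 2.13) and rose by 1.66 ± 0.32. The transferrin receptor Tfrc had 3.86, 4.08, 3.86 and 3.59 against 1.84 to 2.62, a difference of 1.55 ± 0.34, and the early erythroid factor Tal1 rose by 1.51 ± 0.33. Gata1, the master erythroid factor, rose by 0.57 and Kel, a red cell blood group protein, by 1.44 ± 0.36, with replicate 1 at 3.26 and the other 7-day arrays at 4.26 to 4.37. The membrane skeleton anchor Ank1 rose by 1.28 ± 0.24, the adhesion protein Icam4 by 1.10 ± 0.20 and the carbonic anhydrase Car1 by 0.98 ± 0.29. Globin genes and the membrane genes Slc4a1, Epb42, Sptb and Rhag were not called. The beta globin gene Hbb-b1 had 7.59, 6.88, 7.30 and 6.57 against 6.18 to 7.82, a difference of 0.26 ± 0.39 (adjusted p = 0.71), and the anion exchanger Slc4a1 differed by 0.26 ± 0.23 (adjusted p = 0.473). Leaving out CpG 7 days replicate 3 reduced the erythroid count from 11 to 7. Further genes with roles in red cells, chosen after their values were seen, were called higher: the membrane protein Xk, a partner of Kel (1.50 ± 0.26), the kinase Dyrk3 (1.51 ± 0.35), the factor Sox6 (1.51 ± 0.30), the ferrireductase Steap3 (1.52 ± 0.32) and the erythroblast hormone Erfe (1.17 ± 0.26). Against 14 days, 9 haem synthesis genes (75%) and 7 erythroid markers (25%) were higher and 0 lower, where 10.8% of all genes were higher. Against 72 h, 1 haem synthesis gene was higher (8.33%, where 1.08% of all genes were higher), Fech by 1.16 ± 0.34 (limma adjusted p = 0.0476). Of the erythroid markers 0 were called against 72 h.

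Of 21 genes of iron recycling and of resident macrophages, 3 were higher (14.3%, where 8.69% of all genes were higher), with a median of 0.02. The number lower was 1 (4.76%, where 6.89% of all genes were lower), or 2 without untreated replicate 5. The higher ones were Blvrb, an enzyme of haem breakdown, and the macrophage markers Cd5l and Mrc1. Blvrb, which reduces biliverdin, rose by 1.16 ± 0.26 with no overlap between groups. Hmox1, the haem oxygenase before it in the pathway, fell by 0.61 ± 0.18, a call lost without CpG 7 days replicate 1 or replicate 4 (adjusted p up to 0.0945). The iron exporter Slc40a1 differed by -0.56 ± 0.21 (adjusted p = 0.0704), and it passed when CpG 7 days replicate 2 or untreated replicate 2 was left out. Cd5l, a survival protein of tissue macrophages, rose by 1.49 ± 0.44 and the mannose receptor Mrc1 by 1.42 ± 0.40, and both calls were lost without CpG 7 days replicate 2 or 3, that of Cd5l also without untreated replicate 5 (adjusted p up to 0.0728).

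**Figure D2:**
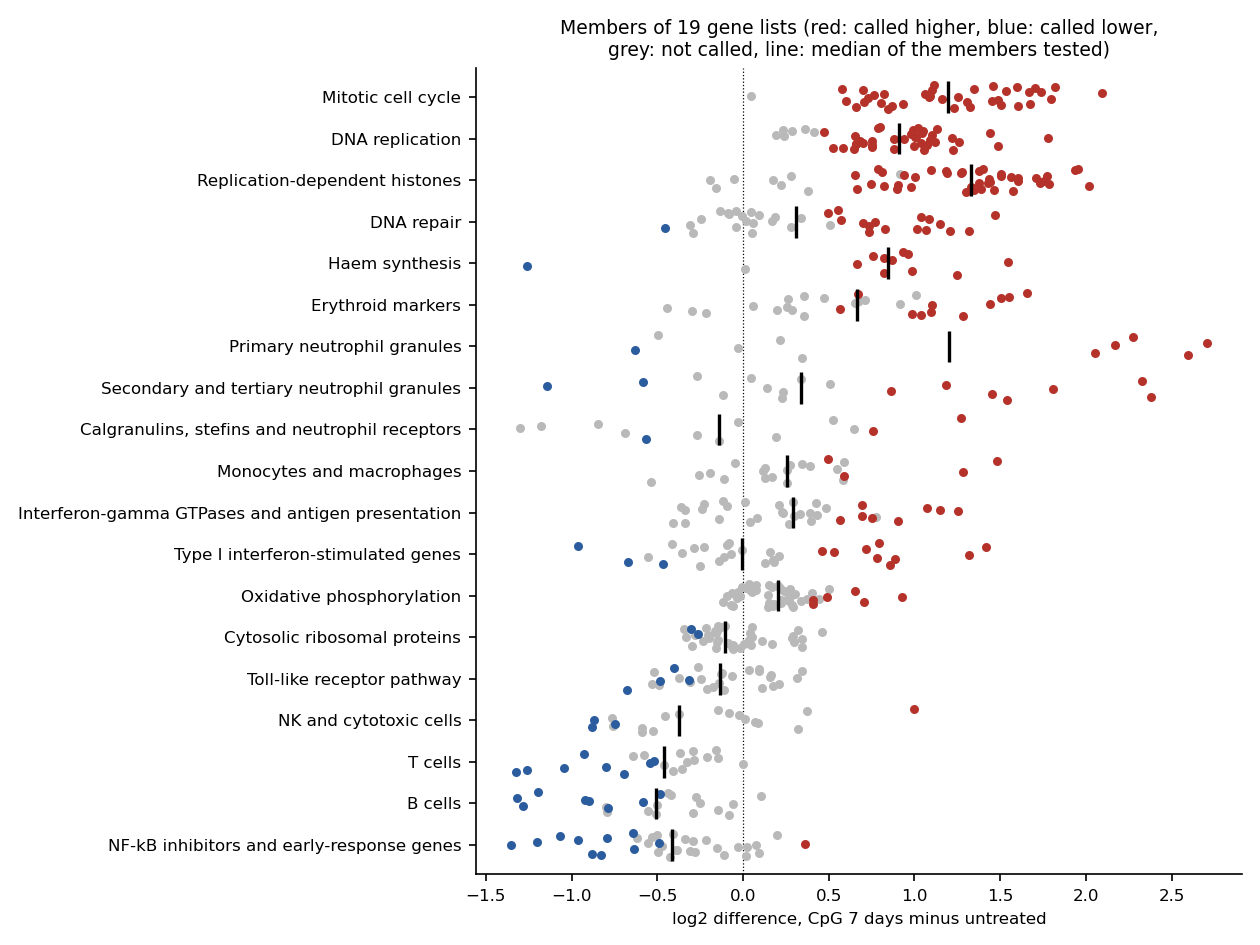
Log2 differences, CpG 7 days minus untreated (horizontal axis), of each tested member of 19 gene lists (rows), coloured by whether limma called it higher (red), lower (blue) or neither (grey), with the median of each list as a black line. The mitotic, replication and histone rows lie almost wholly to the right of 0, while the haem row has 10 red points and 1 blue point, Alas2, at -1.26.

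Primary granule genes of immature granulocytes were among the strongest increases. Of 10 members 5 rose (50%, where 8.69% of all genes rose) and 1 fell (10%, where 6.89% fell), with a median of 1.20. Mpo, the myeloperoxidase of primary granules, had levels of 3.74, 4.29, 4.41 and 4.04 at 7 days against 1.56 to 2.34 (median 1.92) in untreated mice and rose by 2.17 ± 0.26 (4.50-fold, adjusted p = 8e-07). Elane, neutrophil elastase, had 2.91, 2.98, 2.78 and 3.14 against 0.62 to 1.35 (median 0.84), a difference of 2.05 ± 0.22. The lowest 7-day array exceeded the highest untreated array by more than the range of either group, in both genes. Ctsg, cathepsin G, rose by 2.59 ± 0.34, Prtn3, proteinase 3, by 2.28 ± 0.30 and Ms4a3, a surface protein of granulocyte and monocyte progenitors, by 2.71 ± 0.34. The member that fell was Igfbp4 (-0.63), an insulin-like growth factor binding protein, and its call was lost without CpG 7 days replicate 2 or 4 or untreated replicate 4. The other 4 members were not called, among them lysozyme Lyz2 at -0.03 and Ctsc at 0.34.

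Of 17 secondary and tertiary granule genes 7 rose (41.2%, where 8.69% of all genes rose), with a median of 0.34. The number that fell was 2 (11.8%, where 6.89% of all genes fell), or 1 without CpG 7 days replicate 4. The antimicrobial peptide Camp had levels of 3.84, 3.89, 3.74 and 3.90 against 1.50 to 3.08 (median 2.44) and rose by 1.54 ± 0.33, and lipocalin Lcn2 rose by 1.81 ± 0.32. Ngp, neutrophilic granule protein, had 2.64, 2.53, 3.13 and 3.38 against -0.14 to 1.45 and rose by 2.33 ± 0.46. Chil3, a chitinase-like protein, rose by 2.38 ± 0.32 and its close relative Chil4 by 2.33 ± 0.23, although the genes are close copies and their features may share transcripts. Lactoferrin, Ltf, rose by 1.18 ± 0.40 (adjusted p = 0.0404), a call lost without CpG 7 days replicate 2, 3 or 4 or untreated replicate 3, 4 or 6 (adjusted p up to 0.18). The gelatinase Mmp9 and the leukotriene receptor Ltb4r1, products of late neutrophils, fell by 0.59 and 1.14.

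Most genes of circulating neutrophils were not called, and no call among them held in every fit that left out 1 array. Of 13 calgranulin, stefin and receptor genes 2 rose (15.4%, where 8.69% of all genes rose), with a median of -0.14. The number that fell was 1 (7.69%, where 6.89% of all genes fell), 2 without untreated replicate 5 and 3 without untreated replicate 6. S100a8 had levels of 6.00, 6.31, 5.51 and 5.84 against 4.16 to 5.78 and a difference of 0.76 ± 0.26 (adjusted p = 0.0429) whose call was lost without CpG 7 days replicate 1, 2 or 4 or untreated replicate 1, 2 or 6 (adjusted p up to 0.153). Wfdc21 rose by 1.27 ± 0.38, a call lost without CpG 7 days replicate 3 or 4 (adjusted p up to 0.0691). The chemokine receptor Cxcr2 differed by -0.56 ± 0.18 and its call was lost without CpG 7 days replicate 1 or 3 or untreated replicate 1, 2 or 3 (adjusted p up to 0.099). Outside neutrophils, the basophil protease Mcpt8 had levels of 3.14, 3.26, 3.29 and 3.70 against 0.62 to 1.14 on the 4 untreated arrays with a value and rose by 2.44 ± 0.28. Eosinophil peroxidase, Epx, rose by 1.69 ± 0.41 with 5 untreated arrays measured, while the other 10 of 12 eosinophil and mast cell genes were not called.

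Against 14 days, 1 of the 10 primary granule genes was higher at 7 days, Ms4a3 by 1.05 ± 0.37 (limma adjusted p = 0.0411). Another 2 were lower, Serpinb1a (-0.95) and Igfbp4 (-0.81), with a median of 0.06. These were 10% and 20% of the list, where 10.8% of all genes were called in each direction. Mpo differed by -0.07 ± 0.28 and Elane by 0.19 ± 0.24, neither called. Among the secondary granule genes, Ltf was lower at 7 days by 2.62 ± 0.42 (difference -2.62, adjusted p = 6.36e-05), Lcn2 by 1.87 ± 0.35 (difference -1.87) and Camp by 1.66 ± 0.37 (difference -1.66). Of the 17 secondary and tertiary members 9 were lower than at 14 days and 0 higher, with a median of -0.91, where 10.8% of all genes were lower. Against 72 h, 1 member of each list was higher, Elane by 1.04 ± 0.24 and Chil3 by 1.53 ± 0.35, while 8 of 13 calgranulin, stefin and receptor genes were lower, with a median of -1.06, where 2.58% of all genes were lower. Epx was higher than at 72 h by 2.05 ± 0.43 and lower than at 14 days (difference -1.51 ± 0.43). The mean of the secondary list was 1.54 ± 0.15 in untreated mice, 2.09 ± 0.12 at 7 days and 3.16 ± 0.26 at 9 days.

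**Figure D3:**
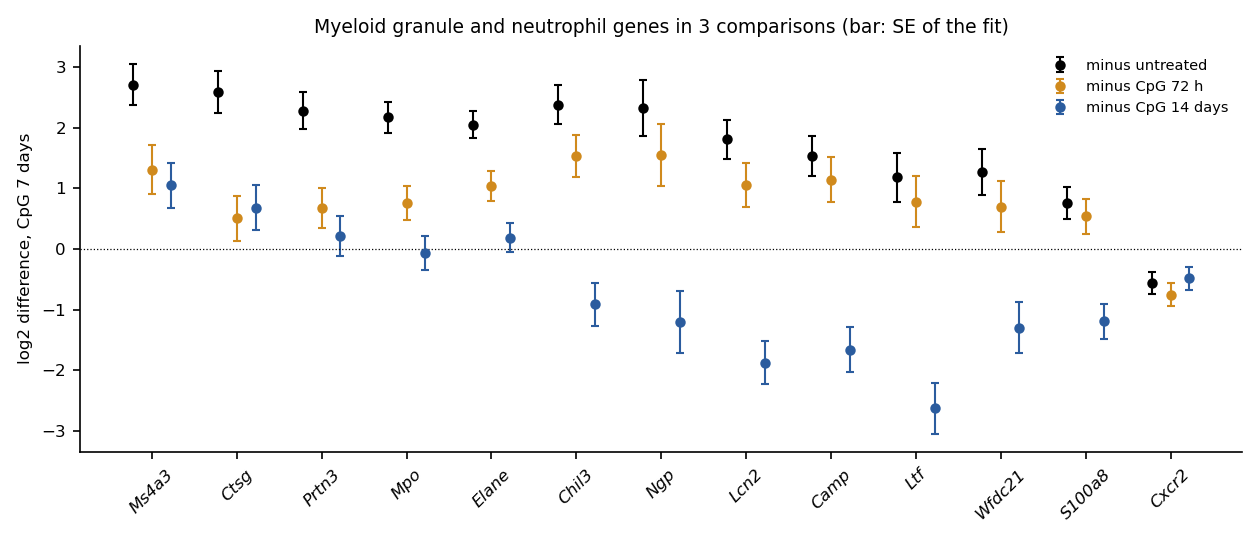
Log2 differences (vertical axis, with the SE of the limma fit as bars) of 13 granule and neutrophil genes at 7 days after CpG ODN, minus untreated (black), minus 72 h (orange) and minus 14 days (blue). The 5 primary granule genes on the left lie at or above 0 in all comparisons within their errors, while Chil3 to S100a8 lie above 0 against untreated and below 0 against 14 days.

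Monocyte, macrophage and dendritic cell genes changed singly. Of 21 monocyte and macrophage genes 4 rose (19%, where 8.69% of all genes rose) and 0 fell, with a median of 0.26. The count was 2 without CpG 7 days replicate 3 or 4 or untreated replicate 6, each of which ended the calls of the protease Ctsd (0.59 ± 0.19) and the scavenger receptor Msr1 (0.49 ± 0.15). The features of Msr1 differed by 0.21, 0.22 and 0.65, and none was called alone. Ms4a6d had levels of 2.94, 3.28, 3.15 and 3.13 against 1.25 to 2.01 and rose by 1.48 ± 0.22, and the transglutaminase F13a1 rose by 1.28 ± 0.26. Both were called higher than at 14 days too, while Ms4a6d was lower than at 72 h (difference -1.51 ± 0.24). Among 17 dendritic cell genes 2 rose (11.8%, where 8.69% of all genes rose) and 1 fell (5.88%, where 6.89% fell). Clec9a, the dead-cell receptor of cross-presenting cells, rose by 1.00 ± 0.19 and Itgae, integrin CD103, by 1.27 ± 0.17. Itgae had 2.56, 2.33, 2.72 and 2.02 against 0.93 to 1.29, and it was also higher than at 72 h (1.40 ± 0.19) and at 14 days (1.32 ± 0.19). Tcf4, a factor of plasmacytoid dendritic cells also present in B cells, fell by 1.04 ± 0.18. Megakaryocyte genes had 3 of 17 higher (17.6%, where 8.69% of all genes were higher), 0 lower and a median of 0.52. The higher ones were the adhesion protein Selp (0.73 ± 0.18), von Willebrand factor (Vwf, 1.02 ± 0.31) and thrombospondin Thbs1 (0.94 ± 0.33). Platelet factor Pf4 was not called at 0.47 ± 0.28. Without CpG 7 days replicate 2 or 3 or untreated replicate 5 the calls of Vwf and Thbs1 were lost and 1 was left, and that of Thbs1 was lost in 7 of 10 fits that left out 1 array.

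B cell genes were lower in 8 of 22 members and higher in 0, with a median of -0.51, where 6.89% of all genes were lower. In 7 members all 7-day arrays lay below all untreated arrays, against 7.57% of the genes measured on all 10 arrays. Cd79b, a signalling chain of the B cell receptor, had levels of 2.28, 2.63, 2.60 and 2.19 at 7 days against 3.50 to 3.86 (median 3.74) in untreated mice. The highest 7-day array lay below the lowest untreated array, and the difference was -1.28 ± 0.15 (adjusted p = 5.18e-07). H2-Ob, which tunes peptide loading of MHC class II in B cells, fell by 1.32 ± 0.28, Spib by 1.19 ± 0.34 and Fcrla by 0.92 ± 0.27. The call of Spib was lost without CpG 7 days replicate 4 (adjusted p = 0.0708), the array with its lowest level. Tnfrsf13c, the BAFF receptor, is outside the list and had 2.88, 3.71, 3.29 and 2.68 against 3.95 to 4.79, a difference of -1.30 ± 0.33. Other B cell genes were not called, among them Cd79a (-0.80), Ms4a1 (-0.42), Cr2 (-0.06) and Ighm (0.10). Vpreb2, a surrogate light chain gene of B cell precursors, had 0.99, 0.99, 0.68 and 1.22 against 2.22 to 2.63 and fell by 1.43 ± 0.25, whereas its close copy Vpreb1, with values on 4 untreated arrays, was not called (0.34), so the features of these copies disagree.

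T cell genes were lower in 8 of 21 members (38.1%, where 6.89% of all genes were lower) and higher in 0, with a median of -0.46. Cd3e, a chain of the T cell receptor complex, had levels of 0.06, 0.03, 0.18 and 0.00 against 0.84 to 1.54 (median 1.04), a difference of -1.04 ± 0.17. Cd8a, the coreceptor of cytotoxic T cells, had 1.78, 1.94, 2.17 and 2.12 against 1.49 to 2.73 and was not called (-0.33 ± 0.22, adjusted p = 0.347), with its features at -0.84 and 0.18. The costimulatory receptor Cd28 fell by 1.26 ± 0.17, and the genes of naive T cells Ccr7 and Lef1 by 1.32 ± 0.28 and 0.93 ± 0.18. Klf2, which keeps naive lymphocytes circulating, had 1.92, 2.32, 2.53 and 1.73 against 3.27 to 3.77 and fell by 1.36 ± 0.24. Its target S1pr1, the exit receptor of lymphoid organs, fell by 0.95 ± 0.23, and of the GTPases of lymphocyte survival Gimap8 fell by 1.21 ± 0.18 and Gimap9 by 0.87 ± 0.19, while Gimap4 (-0.25) and Gimap5 (-0.06) were not called. S1pr1 and the Gimap genes were chosen after their values were seen. Against 14 days 13 B cell genes (59.1%) and 11 T cell genes (52.4%) were lower and 0 higher, with medians of -0.73 and -0.60. Of all genes, 10.8% were lower than at 14 days. Against 72 h 0 of either list were called (limma), with medians of -0.17 and -0.01.

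Cytotoxic cell genes had 3 of 19 lower (15.8%, where 6.89% of all genes were lower) and 1 higher (5.26%, where 8.69% were higher). The median was -0.38, and both counts moved with single arrays. The count of lower genes was 1 without CpG 7 days replicate 2 or 4 or untreated replicate 1, and 5 without untreated replicate 5, and the higher gene, the chemokine Xcl1, lost its call without CpG 7 days replicate 2, 3 or 4 or untreated replicate 1, 3, 5 or 6 (adjusted p up to 0.171). Gzmb, granzyme B, had 1.51, 1.66, 1.42 and 1.47 against 1.70 to 3.01, with no overlap, and a difference of -0.76 ± 0.30 (adjusted p = 0.0814) that passed when untreated replicate 2 was left out. Against 72 h, Gzmb was lower by 3.36 ± 0.33 (difference -3.36, limma adjusted p = 9.46e-09). Of the 19 genes 9 were lower than at 72 h (47.4%, where 2.58% of all genes were lower), and the median was -1.05.

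The class-switched immunoglobulin genes Ighg1 and Ighg2c showed the second and the third highest differences of all named genes. Ighg1 had levels of 2.99, 3.10, 4.02 and 3.51 at 7 days against -1.28 to 0.30 (median -0.40) and rose by 3.84 ± 0.68 (14.4-fold, adjusted p = 0.000187). Ighg2c had 0.19, 0.66, 1.40 and -0.07 against -3.07 to -1.43 (median -2.38) and rose by 2.92 ± 0.46. The heavy chain genes are close copies, and Ighg2c is another strain's counterpart of a gene of BALB/c mice, so which IgG transcript each feature reports is uncertain. Of 22 plasma cell and immunoglobulin genes tested, 3 were higher, Ighg1 and Ighg2c among them, and 3 lower, with a median of -0.18. Each count was 13.6% of the list, where 8.69% of all genes were higher and 6.89% lower. The other heavy chain genes on the list, Igha at 0.14 and Ighm at 0.10, were not called. Neither were the joining chain Jchain (-0.36 ± 0.17), Mzb1 (-0.38), Prdm1 (-0.27) and Sdc1 (-0.24) of plasma cells. Irf4, a factor of activated B cells and plasma cells, fell by 0.92 ± 0.21, with 7-day replicate 3 at -0.65 and the others from -1.49 to -1.37. Tnfrsf13b of the same list fell by 0.73 ± 0.19, with its features at -1.23 and 0.01. Of 122 immunoglobulin kappa variable genes tested, 2 fell (1.64%, where 6.89% of all genes fell) and 0 rose, with a median of -0.10. The number that fell was 1 without CpG 7 days replicate 1, 3 or 4 or untreated replicate 1 or 5. Ighg1 was not called against 14 days (-0.06 ± 0.75) and missed the threshold against 72 h (2.16 ± 0.75, adjusted p = 0.0893), and Ighg2c was higher than at both times, by 1.81 ± 0.50 and 1.41 ± 0.50.

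Most interferon-stimulated genes were not called at 7 days, while a subset was higher than in untreated mice. Of 29 type I members 9 were higher (31%, where 8.69% of all genes were higher), with a median of -0.01. Another 3 were lower (10.3%, where 6.89% of all genes were lower). Isg15, a ubiquitin-like modifier, had levels of 2.23, 2.44, 2.44 and 2.46 against 0.55 to 1.62 (median 1.11) and was higher by 1.32 ± 0.24. Rsad2, viperin, had 4.38, 5.72, 5.67 and 5.06 against 2.56 to 5.00 and was higher by 1.42 ± 0.41, a call lost without CpG 7 days replicate 2 or 3 (adjusted p up to 0.0643). The RNA sensor Ifih1 was higher by 0.88 ± 0.18 and Ifit1 by 0.78 ± 0.17. Samd9l was lower by 0.96 ± 0.18, with levels of 1.28, 1.67, 1.83 and 1.82 against 2.32 to 2.83, and Mx1 (-0.07), Irf7 (0.21) and Oas2 (0.16) were not called. Of 33 interferon-gamma GTPase and antigen presentation genes 8 were higher (24.2%, where 8.69% of all genes were higher) and 0 lower, with a median of 0.29. Without CpG 7 days replicate 2 or replicate 3, 3 were higher. The immunity-related GTPase Igtp had 2.98, 3.73, 3.53 and 3.03 against 1.75 to 2.24 and was higher by 1.25 ± 0.20. Iigp1 was higher by 1.15 ± 0.25, with its features at 1.86 and 0.43, the latter not called alone (limma adjusted p = 0.121). The chemokines Cxcl9 (0.04) and Cxcl10 (-0.34) of the same pathway were not called.

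Within the run, many of these genes were lower than at 72 h. Against 72 h, 20 of the 29 type I members (69%) and 17 of the 33 interferon-gamma members (51.5%) were lower and 0 higher. Of all genes, 2.58% were lower than at 72 h. The list medians were -1.14 and -0.97. Gbp2b differed from its level at 72 h by -2.46 ± 0.30 and Iigp1 by -1.90 ± 0.27. Against 14 days, 5 type I members were higher (17.2%) and 2 lower (6.9%), and 6 interferon-gamma members were higher (18.2%) and 0 lower. Of all genes, 10.8% were called in each direction against 14 days. The type I list mean was 0.76 ± 0.12 in untreated mice, 2.38 ± 0.21 at 24 h, 1.97 ± 0.18 at 72 h, 0.91 ± 0.07 at 7 days and 0.76 ± 0.13 at 14 days.

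**Figure D4:**
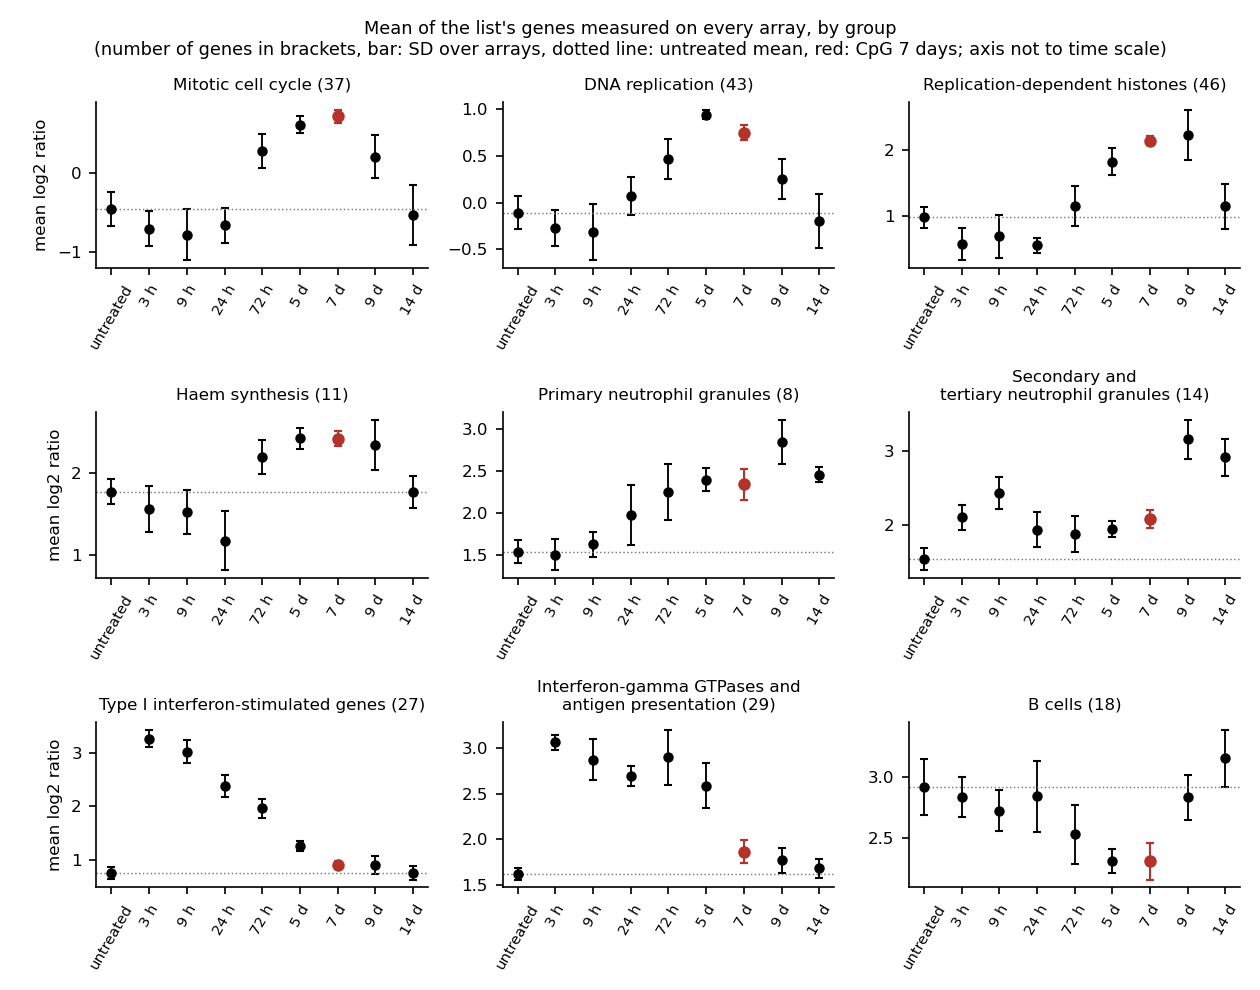
Mean log2 ratio (vertical axes) of the genes of 9 lists that have a value on every array, in untreated mice and at 8 times after CpG ODN (horizontal axis, not to time scale), with the SD over arrays as bars and 7 days in red. The mitotic mean is highest at 7 days (0.73), the B cell mean is lowest at 5 and 7 days (2.32 and 2.31), and the secondary granule mean at 7 days (2.09) lies below those at 9 and 14 days.

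NF-kB inhibitors and early-response genes formed a list written after the values were seen. Of 34 members 10 were lower (29.4%, where 6.89% of all genes were lower), with a median of -0.42. Another 1 was higher (2.94%, where 8.69% of all genes were higher). The higher gene, Klf4 (0.36), lost its call without CpG 7 days replicate 1, 3 or 4 or untreated replicate 1 or 6. Nfkbia, which holds NF-kB in the cytoplasm, had levels of -0.18, -1.04, -0.40 and -0.74 at 7 days against 0.16 to 1.17 (median 0.45) and fell by 1.20 ± 0.19. Nfkbid, a nuclear member of the same family, fell by 0.96 ± 0.16 and Rgs1, which dampens chemokine receptors, by 1.06 ± 0.25. The immediate early genes Fos (-0.39), Egr1 (-0.50) and Junb (0.07) were not called. Against 14 days 15 of the list were lower (44.1%, where 10.8% of all genes were lower) and 0 higher. Cytokine genes had 3 of 24 lower (12.5%, where 6.89% of all genes were lower) and 1 higher (4.17%, where 8.69% were higher). The higher gene, Il18 (0.61 ± 0.21), lost its call in 8 of 10 fits that left out 1 array, all but those without CpG 7 days replicate 1 or untreated replicate 1, and Lta, one of the lower genes (-0.59 ± 0.20), in 7 of 10, all but those without untreated replicate 3, 5 or 6. Il1b had 2.42, 3.13, 2.74 and 2.68 against 3.90 to 4.52 and fell by 1.38 ± 0.35, and Csf1, the macrophage growth factor, fell by 0.84 ± 0.19. Of 26 chemokine genes 2 were lower (7.69%, where 6.89% of all genes were lower). The stromal chemokine Cxcl12 was lower by 0.79 ± 0.16 and the eosinophil attractant Ccl24 by 0.75 ± 0.17. Another 1 was higher (3.85%, where 8.69% were higher), Xcl1 (1.00 ± 0.35), whose lost calls are given among the cytotoxic genes. The receptor of CpG DNA itself, Tlr9, had 0.45, 0.08, 0.37 and 0.21 against -0.03 to 0.54 and differed by 0.03 ± 0.20 (adjusted p = 0.93), with its features disagreeing in sign. In the Toll-like receptor pathway 4 of 28 genes were lower (14.3%, where 6.89% of all genes were lower) and 0 higher. They were Cd180 (-0.68), Tbk1 (-0.49), Traf6 (-0.40) and Ticam1 (-0.31). The call of each was lost without CpG 7 days replicate 1 or 3 or both (adjusted p up to 0.156 over all arrays left out). In 8 of the 10 fits that left out 1 array, 1 or 2 members were called lower.

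The highest and lowest single genes included several outside these groups. Apol10a, of the apolipoprotein L family, stood first, with levels of 5.18, 5.67, 5.39 and 5.68 at 7 days against 0.03 to 1.67 (median 1.41), a difference of 4.31 ± 0.40 (19.9-fold, adjusted p = 1.08e-08). Its difference from 72 h was 0.67 ± 0.44 and not called, and it was higher than at 14 days by 2.98 ± 0.44. Of the other family members, Apol8 rose by 1.40 ± 0.40, whereas Apol10b (-0.02), Apol9a (0.02) and Apol7c (-0.33) were not called. The asparagine synthetase Asns rose by 1.57 ± 0.28 and the glutathione synthesis subunits Gclm and Gclc by 1.35 ± 0.25 and 1.28 ± 0.24, 3 genes chosen with Apol8 after their values were seen. At the other end, Bbs5, a cilium trafficking protein, had 0.20, -0.45, -0.39 and -0.12 against 0.55 to 2.66 and fell by 1.74 ± 0.32. Igfbp5, made by stroma, had 0.22, -0.44, -0.05 and -0.22 against 0.72 to 2.14 and fell by 1.68 ± 0.26, Vegfa by 1.34 ± 0.25 and the arginase Arg2 by 1.32 ± 0.29. Of the 15 genes with the largest increase under the naming rule, 6 were called higher against 72 h and 7 against 14 days. Of the 15 with the largest decrease, 0 were called lower against 72 h and 11 against 14 days.

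Most ribosomal protein, oxidative phosphorylation, stromal and adipocyte genes were not called. Of 41 cytosolic ribosomal protein genes 2 were lower (4.88%, where 6.89% of all genes were lower) and 0 higher, with a median of -0.11. The larger of these differences was that of Rps25 (-0.30 ± 0.09), whose call was lost without CpG 7 days replicate 2 (adjusted p = 0.0522). Without CpG 7 days replicate 4 or untreated replicate 3, 1 was lower. Of 47 oxidative phosphorylation genes 6 were called higher (12.8%, where 8.69% of all genes were higher) and 0 lower. Differences were positive in 38 of them, with a median of 0.20. The largest was that of cytochrome c1 (Cyc1), which had -0.19, 0.25, 0.48 and -0.08 against -1.01 to -0.48 and rose by 0.93 ± 0.19. Against 14 days 12 of the oxidative phosphorylation genes were called higher (25.5%, where 10.8% of all genes were higher) and 0 lower, and 46 of 47 differences were positive. Of 24 endothelial, fibroblast and matrix genes 2 were lower (8.33%, where 6.89% of all genes were lower) and 0 higher. The lower ones were the matrix proteoglycan Dcn (-1.15 ± 0.27) and the mesothelial factor Wt1 (-0.63 ± 0.18). Their number was 1 without CpG 7 days replicate 3 and 5 without untreated replicate 5. Of 9 adipocyte genes 3 were lower (33.3%, where 6.89% of all genes were lower), and 5 were lower without untreated replicate 6. Among the 3 were Lpl (-0.95 ± 0.16), which also serves macrophages, and Scd1 (-0.88 ± 0.17).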

How the data were processed

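Spleen RNA of 42 samples was measured on 2-colour oligonucleotide arrays against a common reference RNA. The authors deposited 1 value per feature and array, taken here as a log2 ratio. Per the labels' protocols, cDNA was made with oligo(dT) and aminoallyl-dUTP and coupled to Cy5 (spleen) or Cy3 (reference). The sources used here do not state the normalization, the spot filter, the scale or the direction. Base 2 and spleen over reference were inferred from the range (-6.86 to 9.78), array medians near 0 and the high levels of spleen genes. Features were named through the annotation table of the array. Those with 1 symbol were averaged per symbol. Features with several symbols (179) or no symbol (6937) were not used for genes. Of the genes, 5163 had more than 1 feature, and 0 pairs of arrays were identical.

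All 42 arrays were fitted at once in limma 3.58.1 (R 4.3.3) with 1 coefficient per group. Tests were 2-sided and needed values on 3 or more arrays in both groups, with Benjamini-Hochberg adjustment over all genes tested. On simulated data in the layout of the main comparison the fit was tested first. Members of the comparison and the 30 gene lists, which came from general knowledge, were chosen with earlier results of these data known, and 4 more lists were added after the values were seen. Lists are described by counts and medians, without a set test.

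Genes were named by a rule: the 15 highest and 15 lowest called genes with values on all 10 arrays, no overlap between groups and features of 1 sign, passing over clone and predicted-gene symbols; the called members of a list with the largest differences, at most 4 a list; and a fixed panel of genes given whatever their result where they had values. Genes and list members named outside the rule are those whose counts the text gives or are said to be chosen after their values were seen. The main fit did not pair samples by replicate number. Deviations of same-numbered arrays correlated from -0.127 to 0.175 between 7 days and untreated, and from -0.153 to 0.339 between 7 and 14 days. Arrays of different number were not compared, so these values cannot decide whether samples were paired. Alternatives covered centring, scaling, filters, the arrays fitted, spread, weights, thresholds, blocks by replicate number and by run, an acinar covariate (chosen after seeing the data) and each array left out. Python 3.11.15 and matplotlib 3.10.9 drew the figures.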

Additional observations from a re-analysis of the deposited data

Results flagged for a closer look

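In 14 of 270 groups of arrays tested among the named genes, 1 array lay far from the others of its group (Dixon's criterion at the 95% level), and chance alone flags about 1 in 20. At 7 days these were replicate 1 for Kel (3.26, others 4.26 to 4.37) and Isg15 (2.23, others 2.44 to 2.46), replicate 2 for Vegfa (-3.06, others -2.77 to -2.72), replicate 3 for Irf4 (-0.65, others -1.49 to -1.37) and Mcm5 (1.54, others 1.18 to 1.21), and replicate 4 for Spib (2.40, others 3.08 to 3.14) and Klrb1c (0.88, others 1.17 to 1.22). In untreated mice they were replicate 1 for Tnfrsf13b (2.57, others 1.64 to 1.83) and H2bc1 (0.30, others 0.74 to 0.90), replicate 2 for the acinar gene Prss2 (0.19, others 4.90 to 6.40), replicate 5 for Cd28 (1.23, others 0.94 to 1.03), and replicate 6 for Cd24a (4.76, others 3.61 to 3.96), Fabp4 (2.30, others 3.27 to 3.64) and Rad54l (-0.24, others -1.16 to -0.91). For Kel, Isg15, Vegfa, Irf4, Mcm5, Klrb1c, Tnfrsf13b, H2bc1, Cd28 and Rad54l the call was kept in every fit that left out 1 array. It was lost in 1 such fit for Spib, 2 for Fabp4 and 8 for Cd24a, and Prss2 was not called.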

How the results depend on the processing

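Of 15200 genes, 2368 were called in the main comparison, and between 1617 and 2301 when 1 array was left out. Array weights gave 3779 genes, an adjusted p below 0.01 gave 1178, and an added difference of at least 1 gave 419. The other settings gave 2004 (runs as a random block, consensus correlation 0.0274) to 2911 genes (arrays of the 2 groups alone), and the replicate block gave 2070. The replicate block gave 690 genes against 72 h and 3306 against 14 days. Against 72 h (553 genes) the arrays of the 2 groups alone gave 363, and leaving out 1 array gave 305 to 1055. Against 14 days (3224 genes) leaving out 1 array gave 1874 to 3243. The cause of these shifts was not tested. The 37 mitotic calls held in every fit leaving out 1 array, and 25 were higher by at least 1. Signs were followed only for the 135 named genes, of which 4 changed sign, none of them called. Tlr9 gave -0.03 with the replicate block, and from -0.02 (without CpG 7 days replicate 1 or untreated replicate 1) to 0.10 when 1 array was left out. With the acinar covariate Prss2, Ctrl and Pnliprp1 gave 0.43, 0.51 and 0.39, and without CpG 7 days replicate 1 they gave 0.67, 0.82 and 0.31. The lowest values with 1 array left out were -1.66, -1.43 and -1.43. Of 123 named genes that were called, 89 kept the call in every fit that left out 1 array and 34 lost it in at least 1. Settings other than the stricter thresholds ended the call of 23 of these 34, among them 15 under the replicate block (such as Rsad2, Mrc1, Ltf and S100a8) and 11 with runs as a random block. Signal over background was not used here, so dim features cannot be told from bright ones.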
